A study of Mus musculus with 17 samples.

Results

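Lin28a, Lin28b, Hmga1, Hmga2, Igf2bp1, Igf2bp2, Igf2bp3 and Sall4 are known as oncofetal genes, which are active in the embryo, fall silent in most adult tissues and return in many tumours. They were taken by symbol from mouse RNA-seq count tables, where all 8 were found among 52850 symbols, and were compared over 4 groups of libraries. The study concerned ependymoma of the supratentorial brain and fusion proteins of the transcription coactivator YAP. The YAP-M group held 4 libraries of brain tumours raised by in utero electroporation, in which plasmids enter brain cells of the embryo, and the construct was called YAP-M. The YMdIDR group held 3 libraries made with the construct YAP-MΔIDR, and its labels give both brain tumour tissue and neural progenitors of embryonic stem (ES) cell origin. The SVZ group held 3 libraries with the treatment wild-type, although their tissue label also reads brain tumour. The NSC-YAP group held 2 libraries of ES-derived neural progenitor cells that overexpressed YAP. No age, strain or promoter was given, and the labels do not say whether the replicates are different animals or cultures, so p-values measure only the spread between these samples.

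LIN28A and LIN28B are RNA-binding proteins that bind the hairpin precursors of let-7 microRNAs and block their maturation, and mature let-7 in turn represses Lin28, Hmga2 and Igf2bp mRNAs. HMGA1 and HMGA2 are small chromatin proteins that bind the minor groove of AT-rich DNA and are abundant in neural stem cells of the embryo. IGF2BP1, IGF2BP2 and IGF2BP3 bind mRNAs such as Igf2 and Myc and protect or localise them, and SALL4 is a zinc finger protein of ES cells that recruits the NuRD repressor complex.

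Total counts ran from 20784130 to 25463303 per library, and levels are given as CPM, counts relative to a common library size after scaling by the TMM method. Yap1, the gene of which the constructs carry a form, was measured at 92.8 to 105 CPM in YAP-M, 184 to 1276 in YMdIDR, 21.5 to 27.9 in SVZ and 239 to 242 in NSC-YAP. Whether reads of a construct were counted as Yap1 was not given in the sources used here. Mitochondrial genes took 12.7% to 17.0% of the counts in SVZ and 4.91% to 7.05% in the other libraries, so this share moved with every comparison against SVZ. The groups also differed in markers of cell types. The oligodendrocyte marker Mbp averaged 14170 CPM in SVZ and 726 CPM in YAP-M, and all 10 oligodendrocyte markers and all 10 neuron markers were lower in YAP-M than in SVZ. In the same comparison 8 of 10 macrophage markers and 7 of 8 mesenchymal markers were higher. The summed macrophage markers stood at 1375 to 2148 CPM in YAP-M and 1690 to 1826 CPM in YMdIDR, against 342 to 466 CPM in SVZ and 42.4 to 44.2 CPM in NSC-YAP. In NSC-YAP the progenitor genes Sox2 (489 CPM) and Nes (173 CPM) were present, Lum, Cldn5 and Afp had no count, and 9 of 10 progenitor markers were higher than in SVZ. All 16 genes of a cell cycle list were higher than in SVZ in each of the other groups. The part of these differences in the results below was not tested, and in bulk samples fewer cells of a type and less RNA per cell cannot be told apart.

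A gene was called higher or lower where edgeR's adjusted p was below 0.05 and its fold change reached 1 in size on the log2 scale. Against SVZ, the YAP-M tumours had more mRNA of 6 of the 8 genes, namely Hmga2, Igf2bp1, Igf2bp2, Igf2bp3, Lin28a and Sall4, where 25.8% of all 18329 genes tested were higher and 28.9% lower. Lin28a and Sall4 had reached the 1 CPM needed for testing in YAP-M libraries alone, which fixed their direction, and without them 4 of 6 were higher. In YMdIDR 5 of the 8 were higher than in SVZ, namely Hmga2, the 3 Igf2bp genes and Hmga1, where 26.9% of all genes were higher and 29.6% lower, while Lin28a and Sall4 stayed at a few counts per library. NSC-YAP had Hmga1 at a high level, moderate Igf2bp2, little Hmga2 and Igf2bp3, and at most 1 count in all of each of Lin28a, Lin28b, Sall4 and Igf2bp1. Lin28b and Hmga1 were the 2 members not called in YAP-M against SVZ. Both overlapped between these groups, and for Lin28b the SVZ levels lay within the range of YAP-M.

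**Figure D1:**
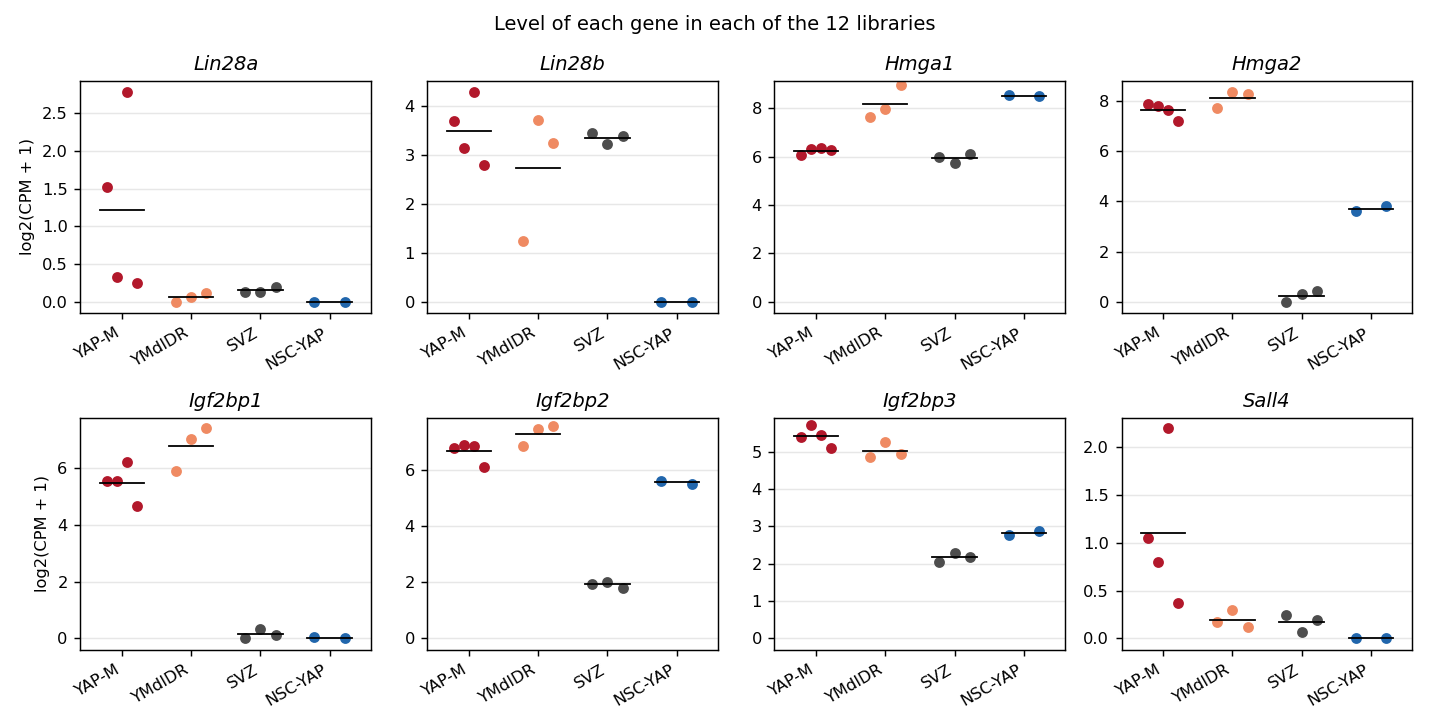
Level of the 8 genes in the 12 libraries on a log2(CPM + 1) axis, with 1 panel for each gene. Points are libraries and bars are group means of the plotted values. Hmga2 and Igf2bp1 lie near 0 in all 3 SVZ libraries and above 4 in all 7 libraries of YAP-M and YMdIDR, and Lin28b is at 0 in both NSC-YAP libraries alone.

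Of the LIN28 pair, Lin28a (ENSMUSG00000050966, chromosome 4, 134003330 to 134018841, minus strand, mm10) was measured at 1.88, 0.260, 5.89 and 0.186 CPM in the YAP-M libraries 1 to 4. It stood at 0, 0.0451 and 0.0885 CPM in YMdIDR, at 0.0923, 0.0900 and 0.147 CPM in SVZ and at 0 in both NSC-YAP libraries. Every YAP-M library was above every other library, but the groups outside YAP-M held only 3, 7 and 0 counts in all, against 201 in YAP-M. The edgeR log2 fold change was 4.16 ± 1.31 (SE) against SVZ, with an adjusted p of 0.0134. YAP-M replicate 3 carried much of this: without it the YAP-M mean fell from 2.05 to 0.775 CPM and the log2 fold change to 2.88. Over the fits that each left out 1 library, the edgeR adjusted p ran from 0.00344 to 0.0435. These fits kept the genes that had passed the filter with all 12 libraries. Without YAP-M replicate 1 or 3, Lin28a reached 1 CPM in only 1 library, not the 2 that the filter requires. Its calls in those fits are therefore no support. Against YMdIDR the counts gave a ratio of 43.7 (95% interval 14.8 to 214), with an adjusted p of 0.0149, and the fitted log2 value of 5.37 was 4.01 without YAP-M replicate 3. Against NSC-YAP Lin28a was at least 31.5-fold higher, with an adjusted p of 0.00941.

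Lin28b (ENSMUSG00000063804, chromosome 10, 45376620 to 45486395, minus strand) was measured at 11.9, 7.76, 18.6 and 5.91 CPM in YAP-M, at 1.37, 12.05 and 8.49 CPM in YMdIDR and at 9.83, 8.33 and 9.50 CPM in SVZ. It had no count in either NSC-YAP library, where 3 counts would have been about 0.122 CPM. The first 3 groups overlapped, and none of their pairs was called. The log2 fold change was 0.26 ± 0.58 for YAP-M against SVZ (adjusted p = 0.694), -0.34 ± 0.62 for YMdIDR against SVZ (adjusted p = 0.632) and 0.60 ± 0.59 for YAP-M against YMdIDR (adjusted p = 0.436). The sign of the first turned without YAP-M replicate 3 and that of the second without YMdIDR replicate 1. The third moved to 1.21 without YMdIDR replicate 2 and was not called there. Against NSC-YAP, Lin28b was at least 176-fold higher in YAP-M, 118-fold higher in YMdIDR and 150.4-fold higher in SVZ, with edgeR adjusted p of 0.000181, 0.00036 and 0.00028. On a scale that allows genes to be compared, CPM per kilobase of exon, Lin28b averaged 1.22 ± 0.62 (SD, n = 4) and Lin28a 0.514 ± 0.670 in YAP-M. Lin28b made up 58.2% to 93.3% of the pair there and at least 96.6% of it in each YMdIDR and SVZ library.

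The sequences that LIN28 proteins act on are shown because the results below name their host entries. Mature let-7 sequences that RefSeq gives for GRCm38.p6, the build of the files, share 1 seed (bases 2 to 8, in capitals) in all 9 cases found, miR-98 included, and 3 are printed here.
let-7a-5p: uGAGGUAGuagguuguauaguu
let-7b-5p: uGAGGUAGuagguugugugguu
let-7g-5p: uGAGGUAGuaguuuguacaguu
In the hairpins, LIN28 proteins are known to contact a GGAG stretch in the loop. The letters GGAG occurred in 9 of the 12 RefSeq hairpins, in capitals below, and not in those of Mirlet7b, Mirlet7c-2 and Mir98. A match of these letters is a description of the sequence and not a binding site.
Mirlet7g hairpin: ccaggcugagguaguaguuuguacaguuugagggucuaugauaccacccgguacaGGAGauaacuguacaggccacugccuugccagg
Mirlet7b hairpin: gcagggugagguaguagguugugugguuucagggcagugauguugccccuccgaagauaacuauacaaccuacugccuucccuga
Mirlet7c-2 hairpin: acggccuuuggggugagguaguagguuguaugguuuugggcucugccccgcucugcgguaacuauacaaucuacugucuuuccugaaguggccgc

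Reads on a hairpin entry in libraries of this kind come from longer transcripts and do not measure mature let-7. Of the 11 Mirlet7 entries, 5 had no count in any library and 9 had under 10 counts in all, so Mirlet7b and Mirlet7c-2, neighbours on chromosome 15, were chosen after their values were seen. Mirlet7b (85707319 to 85707403) had 5, 0, 2 and 1 counts in YAP-M, 3, 0 and 6 in YMdIDR, 16, 9 and 13 in SVZ and 51 and 47 in NSC-YAP. The groups did not overlap except for YAP-M and YMdIDR. The edgeR log2 fold change was 1.75 ± 0.67 for NSC-YAP against SVZ (adjusted p = 0.038), -2.87 ± 0.76 for YAP-M against SVZ (adjusted p = 0.0046) and -2.12 ± 0.79 for YMdIDR against SVZ (adjusted p = 0.0275). Mirlet7b had reached the 1 CPM needed for testing in the NSC-YAP libraries alone, so a higher level in NSC-YAP was built into its being tested. Mirlet7c-2, too low to be tested, had 0 to 5 counts in the YAP-M and YMdIDR libraries, 4, 5 and 8 in SVZ and 14 and 16 in NSC-YAP.

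Among 21 measured genes of let-7 processing, 3 were higher and 3 lower in YAP-M than in SVZ, both below the shares of all genes (25.8% and 28.9%). The median log2 fold change of the list was 0.04, and -0.04 over all genes. The higher ones included Hnrnpa1 (log2 1.56, adjusted p = 1.24e-06), which binds the let-7a precursor, and Syncrip (log2 1.73, adjusted p = 3.82e-06). Trim32 fell by 2.22 on the log2 scale (adjusted p = 2.94e-07 in edgeR), and Dis3l2, the exonuclease that degrades uridylated let-7 precursors, was at 16.9 CPM in YAP-M and 23.1 CPM in SVZ and was not called. In NSC-YAP 6 of the 21 were higher than in SVZ and 0 lower, where 17.5% of all genes were higher and 27.6% lower. The median log2 fold change of the list was 0.63 there, and -0.099 over all genes. Msi1, a partner of LIN28 in neural stem cells, stood at 141.5 CPM in NSC-YAP against 36.3 CPM in SVZ.

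Of 32 genes known as let-7 targets besides the 8 genes, 15 were higher and 4 lower in YAP-M than in SVZ. Of all genes, 25.8% were higher and 28.9% lower in that comparison. The median log2 fold change of the list was 0.90, and -0.04 over all genes. In YMdIDR 15 were higher and 5 lower, where 26.9% of all genes were higher and 29.6% lower. In NSC-YAP 6 were higher and 5 lower, where 17.5% of all genes were higher and 27.6% lower, so the higher count lay near the share of all genes and the lower count below it. The oncogene Myc averaged 118.5 CPM in YAP-M, 125 in YMdIDR and 76.8 in NSC-YAP against 5.93 CPM in SVZ, with log2 fold changes of 4.32, 4.40 and 3.69 against SVZ (edgeR adjusted p of at most 2.33e-08). The cell cycle kinase gene Cdk6 was at 159 CPM in YAP-M and 222 CPM in YMdIDR but at 10.7 CPM in NSC-YAP and 6.64 CPM in SVZ, and Plagl1, an imprinted zinc finger gene, followed the same order of high and low groups. The 4 that were lower in YAP-M, named after their values were seen, were Acvr1c, Prtg, Fign and Onecut2.

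Hmga2 (ENSMUSG00000056758, chromosome 10, 120361275 to 120476469, minus strand) was nearly silent in SVZ and abundant in YAP-M and YMdIDR. It was measured at 236, 222, 198 and 146 CPM in YAP-M and at 210.3, 333 and 308 CPM in YMdIDR. In SVZ it stood at 0, 0.225 and 0.343 CPM, which was 12 counts over the 3 libraries, and in NSC-YAP at 11.3 and 12.9 CPM. YAP-M and YMdIDR overlapped, NSC-YAP lay below both, and SVZ below NSC-YAP. The log2 fold change against SVZ was 10.03 ± 0.47 in YAP-M (adjusted p = 2.16e-08), 10.53 ± 0.47 in YMdIDR (adjusted p = 1.36e-08) and 5.98 ± 0.48 in NSC-YAP (adjusted p = 1.14e-06). Since SVZ replicate 3 held the most of its few counts there, these values were 10.77, 11.23 and 6.68 without it. YAP-M and YMdIDR exceeded NSC-YAP by 4.05 ± 0.37 and 4.55 ± 0.39 on the log2 scale (adjusted p = 2.46e-06 and 1.52e-06), and they differed from each other by -0.50 ± 0.26 (adjusted p = 0.137), which is not called. Per kilobase of exon, Hmga2 ranked 1800 among 18329 genes in YAP-M and 17857 in SVZ.

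The promoter of Hmga2 is printed because Hmga2 went from 12 counts in all of SVZ to over 100 CPM in each YAP-M and YMdIDR library. The 250 bases before the RefSeq start (GRCm38.p6, chr10:120476470-120476719, minus strand) hold a GC box, CCGCCC on this strand and GGGCGG on the other, in capitals.
Hmga2 promoter: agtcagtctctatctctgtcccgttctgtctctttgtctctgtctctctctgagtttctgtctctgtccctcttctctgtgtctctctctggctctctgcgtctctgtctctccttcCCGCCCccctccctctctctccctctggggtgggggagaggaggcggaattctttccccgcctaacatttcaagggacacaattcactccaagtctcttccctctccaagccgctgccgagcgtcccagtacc

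Hmga1 (ENSMUSG00000046711, chromosome 17, 27556620 to 27563674, plus strand) took another order of groups. It was measured at 66.9, 78.0, 80.4 and 76.2 CPM in YAP-M and 62.9, 52.5 and 68.6 CPM in SVZ, which overlapped, with a log2 fold change of 0.30 ± 0.26 (adjusted p = 0.305). YMdIDR, at 195, 246 and 498 CPM, and NSC-YAP, at 373 and 358 CPM, lay above both and overlapped each other. The log2 fold change was 2.35 ± 0.29 for YMdIDR against SVZ (adjusted p = 1.73e-05), 2.57 ± 0.31 for NSC-YAP against SVZ (adjusted p = 2.25e-05) and -2.05 ± 0.26 for YAP-M against YMdIDR (adjusted p = 0.000186). YAP-M was also lower than NSC-YAP, by a log2 fold change of -2.28 ± 0.28 (adjusted p = 2.29e-05). YMdIDR and NSC-YAP differed by -0.22 ± 0.30 (adjusted p = 0.524), a sign that turned without YMdIDR replicate 1.

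Per kilobase of exon, the 2 HMGA genes were near each other in YAP-M, where Hmga1 averaged 37.9 ± 2.96 (SD, n = 4) and Hmga2 29.6 ± 5.84. In SVZ Hmga2 made up at most 0.147% of their sum, in NSC-YAP 0.878% and 1.05%, and in YMdIDR 15.4% to 28.5%. Of 7 other high mobility group genes, 2 were higher and 0 lower in YAP-M than in SVZ, Hmgb2 (log2 3.32, adjusted p = 6.08e-07) and Hmgn1 (log2 1.91, adjusted p = 2.69e-06). Of all genes, 25.8% were higher and 28.9% lower, so the higher count lay near the share of all genes. All 9 genes of a list linked to HMGA2 were higher than in SVZ in YAP-M (median log2 fold change 4.10) and in YMdIDR (median 4.38). In YMdIDR 26.9% of all genes were higher than in SVZ and 29.6% lower. In NSC-YAP 4 of 9 were higher and 2 lower (Twist1 and Snai2, the latter named after its values were seen). There 17.5% of all genes were higher and 27.6% lower, so the lower count lay near the share of all genes. Of the 9, Ccna2 is also on the cell cycle list. The list mixes genes that HMGA2 is known to raise, such as Twist1 and Snai1, with genes it is known to repress, such as Cdkn2a. Cdkn2a, which encodes cell cycle inhibitors, averaged 40.1 CPM in YAP-M, 54.3 in YMdIDR and 138 in NSC-YAP against 0.0163 CPM in SVZ. Twist1 averaged 36.3, 36.1 and 0.102 CPM in the same 3 groups and 0.607 CPM in SVZ. Twist1 and Snai1 are also genes of mesenchymal cells, whose 8 markers summed to 3332 to 7892 CPM in the YAP-M and YMdIDR libraries and 190 to 218 CPM in SVZ, and their part in this result was not tested.

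The 3 Igf2bp genes were all higher than in SVZ in YAP-M and in YMdIDR. Igf2bp1 (ENSMUSG00000013415, chromosome 11, 95957163 to 96005940, minus strand) was measured at 45.7, 45.6, 73.4 and 24.8 CPM in YAP-M and 59.6, 131 and 169.7 CPM in YMdIDR. It stood at 0, 0.270 and 0.0979 CPM in SVZ and at 0.0408 and 0 CPM in NSC-YAP, where it had 1 count in all. The SVZ and NSC-YAP ranges overlapped near 0 and were not called apart (adjusted p = 0.369), and YAP-M and YMdIDR lay above both. Against SVZ the edgeR log2 fold change was 8.51 ± 0.73 in YAP-M (adjusted p = 1.2e-06) and 9.86 ± 0.74 in YMdIDR (adjusted p = 4.45e-07), or 9.87 and 11.17 without SVZ replicate 2. Against the 1 count of NSC-YAP the ratio was 2279 (95% interval 409 to 90030) in YAP-M and 5853 (1050 to 231200) in YMdIDR. YAP-M was lower than YMdIDR by a log2 fold change of -1.34 ± 0.40 (adjusted p = 0.019), although the ranges overlapped. This call was lost without YMdIDR replicate 2 (-1.23, adjusted p = 0.0544) and without YMdIDR replicate 3 (-1.01, adjusted p = 0.0842).

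Igf2bp2 (ENSMUSG00000033581, chromosome 16, 22059009 to 22163299, minus strand) was the member of the family with the highest level in NSC-YAP per kilobase of exon. It was measured at 107.5, 117, 113 and 67.8 CPM in YAP-M, at 113, 173 and 187 CPM in YMdIDR, at 2.81, 3.06 and 2.50 CPM in SVZ and at 47.7 and 43.7 CPM in NSC-YAP. NSC-YAP lay above SVZ and below YAP-M and YMdIDR without overlap, and YAP-M and YMdIDR overlapped. The log2 fold change against SVZ was 5.18 ± 0.26 in YAP-M, 5.81 ± 0.28 in YMdIDR and 4.03 ± 0.27 in NSC-YAP (edgeR adjusted p = 3.75e-08, 1.86e-08 and 3.56e-07). Against NSC-YAP it was 1.15 ± 0.24 in YAP-M (adjusted p = 0.00124) and 1.79 ± 0.26 in YMdIDR (adjusted p = 9.28e-05). YAP-M and YMdIDR differed by -0.64 ± 0.20 (adjusted p = 0.0248), under the size of 1 that a call requires.

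Igf2bp3 (ENSMUSG00000029814, chromosome 6, 49085223 to 49214957, minus strand) was measured at 40.9, 51.8, 42.2 and 33.1 CPM in YAP-M and 27.9, 37.4 and 29.8 CPM in YMdIDR, which overlapped. It stood at 3.14, 3.92 and 3.57 CPM in SVZ and at 5.79 and 6.33 CPM in NSC-YAP. NSC-YAP lay above SVZ without overlap, with a log2 fold change of 0.77 ± 0.20 (adjusted p = 0.00552) that was under the size a call requires. YAP-M and YMdIDR exceeded SVZ by 3.56 ± 0.19 and 3.16 ± 0.19 on the log2 scale, and NSC-YAP by 2.79 ± 0.21 and 2.38 ± 0.21, with edgeR adjusted p of at most 2.02e-06. Igf2bp3 overlaps the gene Malsu1 on the opposite strand by 1529 bases, Malsu1 had 121 to 399 counts per library, and strand use in the counting was not given, so some reads may be shared.

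**Figure D2:**
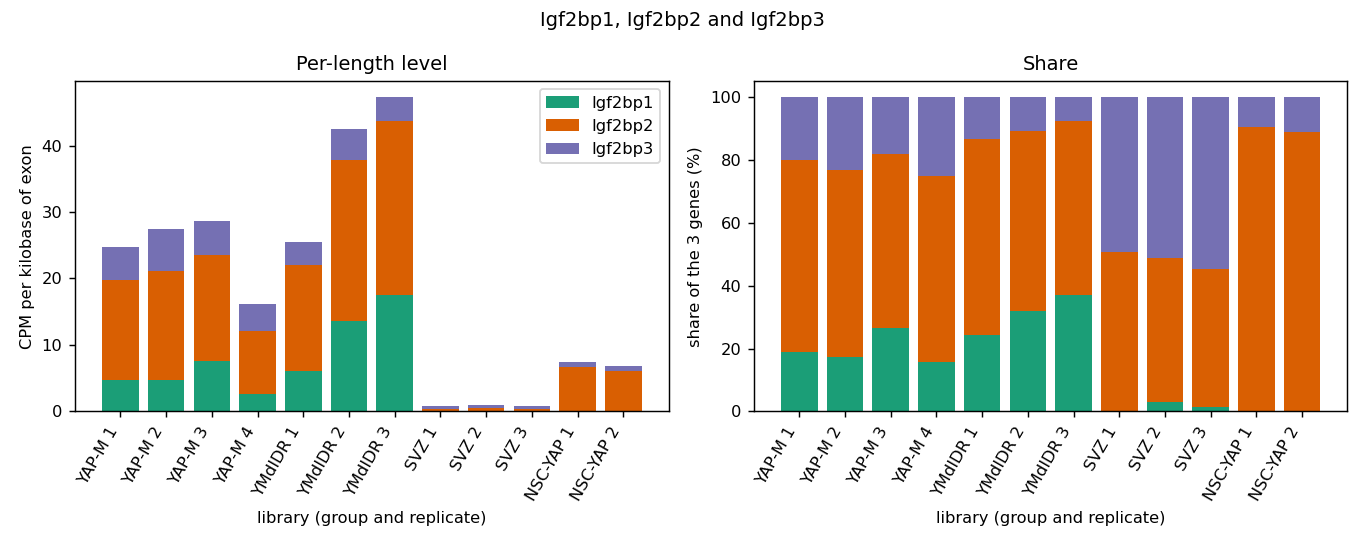
Per-length level of Igf2bp1, Igf2bp2 and Igf2bp3 in each of the 12 libraries (left, CPM per kilobase of exon, stacked) and the share of each gene in their sum (right, percent). The stacked level averages 24.3 in YAP-M, 38.4 in YMdIDR, 0.838 in SVZ and 7.15 in NSC-YAP, and the NSC-YAP bars are at least 88.8% Igf2bp2.

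Per kilobase of exon, the sum of the family averaged 24.3 in YAP-M, 38.4 in YMdIDR, 7.15 in NSC-YAP and 0.838 in SVZ. Igf2bp2 held the largest share in every YAP-M (55.5% to 60.8%) and YMdIDR library (55.3% to 62.3%) and 88.8% and 90.4% of the sum in NSC-YAP. In SVZ Igf2bp3 held 49.3% to 54.9%. Igf2bp1 held 15.9% to 26.4% in YAP-M and 24.2% to 37.0% in YMdIDR, and at most 2.98% in the SVZ and NSC-YAP libraries. The stacked plot of the family shows the same shift, with the Igf2bp1 share visible in YAP-M and YMdIDR and thin or absent elsewhere.

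Among 13 mRNAs known to be bound by IGF2BP proteins, 6 were higher and 3 lower in YAP-M than in SVZ (median log2 fold change 0.92), 7 higher and 3 lower in YMdIDR, and 3 higher and 4 lower in NSC-YAP. Of all genes, 25.8% were higher and 28.9% lower in YAP-M, 26.9% and 29.6% in YMdIDR, and 17.5% and 27.6% in NSC-YAP. Both counts in NSC-YAP, and the lower counts in YAP-M and YMdIDR, lay near these shares. Igf2, the fetal growth factor after which the family is named, averaged 2869 CPM in YAP-M and 7840 CPM in YMdIDR against 144 CPM in SVZ and 1.12 CPM in NSC-YAP. Cd44, a cell surface receptor, averaged 110.0, 97.6, 5.71 and 53.2 CPM in the same order of groups. A list of 12 other oncofetal genes, which shares Igf2, H19 and Peg10 with this one and Plagl1 with the let-7 targets, had 11 higher in YAP-M than in SVZ and 10 in YMdIDR. Afp, among the 10, had reached the 1 CPM needed for testing in YMdIDR libraries alone, which fixed its direction in YMdIDR. In NSC-YAP 2 of the 12 were higher and 6 lower. The exception in YAP-M was Dlk1, which fell by 1.24 on the log2 scale (adjusted p = 0.0021 in edgeR). Gpc3, a fetal surface proteoglycan, averaged 124 CPM in YAP-M, 73.4 in YMdIDR, 5.21 in SVZ and 1.41 in NSC-YAP.

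Sall4 (ENSMUSG00000027547, chromosome 2, 168748332 to 168767943, minus strand) resembled Lin28a. It was measured at 1.07, 0.742, 3.59 and 0.297 CPM in YAP-M, 0.128, 0.226 and 0.0885 CPM in YMdIDR, 0.185, 0.0450 and 0.147 CPM in SVZ and 0 in both NSC-YAP libraries. Each YAP-M library was above all others, while YMdIDR and SVZ overlapped at 10 and 8 counts per group. The log2 fold change was 3.45 ± 0.92 against SVZ (adjusted p = 0.0058) and 3.22 ± 0.89 against YMdIDR (adjusted p = 0.0153), and Sall4 was at least 22.1-fold higher than in NSC-YAP (adjusted p = 0.00233). Without YAP-M replicate 3 the mean in YAP-M fell from 1.42 to 0.703 CPM and the first pair of values to 2.55 and 2.24. Both were still called, in a fit that kept the genes passing the filter with all 12 libraries. Without YMdIDR replicate 3 the call against YMdIDR was lost (2.96, adjusted p = 0.054). Sall4 and Lin28a passed the filter on low counts, 1 CPM in 2 libraries, through YAP-M replicates 1 and 3 only, so a difference of YAP-M was built into their being tested. Without either replicate neither gene would pass that filter, so calls in those fits are no support.

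The other genes of the SALL family moved otherwise. Sall1 and Sall2 were lower in YAP-M than in SVZ, with log2 fold changes of -1.01 ± 0.28 (adjusted p = 0.0058) and -2.61 ± 0.26 (adjusted p = 3.42e-06), and Sall3 was not called (-0.56 ± 0.18). In NSC-YAP, where Sall4 had no count, Sall3 stood at 149 and 162 CPM against 9.83 to 12.5 CPM in SVZ, with a log2 fold change of 3.82 ± 0.22 (adjusted p = 1.32e-07). Of the 16 listed genes of the SALL family and of NuRD, 5 were higher and 3 lower in YAP-M than in SVZ, near the shares of all genes (25.8% and 28.9%), with Mta2, Mbd2 and Gatad2a among the higher and Chd3 (587 CPM in SVZ, 134 CPM in YAP-M) among the lower.

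Set side by side, the 8 genes gave the following counts. In YAP-M against SVZ 6 were higher, Lin28a and Sall4 among them with a direction fixed by the filter, and 0 lower. The median log2 fold change was 3.86. No member had an unadjusted p under 0.05 in the lower direction, and DESeq2 also called 0. In YMdIDR against SVZ 5 were higher and 0 lower (median 2.75), again with 0 lower at an unadjusted p under 0.05 and in DESeq2. In NSC-YAP against SVZ 3 were higher (Hmga1, Hmga2 and Igf2bp2) and 1 was lower (Lin28b), where 17.5% of all genes were higher and 27.6% lower. Lin28a and Sall4 also passed as lower when these groups were fitted alone (adjusted p = 0.0297 and 0.0304), and Sall4 in DESeq2. These comparisons share the SVZ libraries, so their counts are not independent.

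Between the tumours made with YAP-M and the YMdIDR libraries, 2 members were higher in YAP-M (Lin28a and Sall4) and 2 lower (Hmga1 and Igf2bp1), where 9.61% of all genes were higher and 6.78% lower. Both higher members had passed the filter only through YAP-M libraries, so their count is not read against that share, and among the other 6 members 0 were higher and 2 lower. With a minimum of 5 CPM in place of 1 CPM, Lin28a and Sall4 were not tested. The median log2 fold change of the 8 was -0.05 and that of all genes 0.01. Against NSC-YAP, YAP-M had 7 members higher and Hmga1 lower, with 28.9% of all genes higher and 21.6% lower. The 7 include Lin28a and Sall4, whose direction the filter had fixed. With the minimum of 5 CPM, which leaves these genes out, 5 members were higher and 1 lower. YMdIDR had 5 members higher than NSC-YAP, namely Lin28b, Hmga2 and the 3 Igf2bp genes, and 0 lower (also 0 at an unadjusted p under 0.05 and in DESeq2), with 27.4% of all genes higher and 20.4% lower. Sall4 joined them in DESeq2 (adjusted p = 0.0256) and with these groups fitted alone (adjusted p = 0.0464). NSC-YAP was a culture and YAP-M tumour tissue, so construct and material cannot be told apart between them. For YMdIDR and SVZ the labels do not settle the material.

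**Figure D3:**
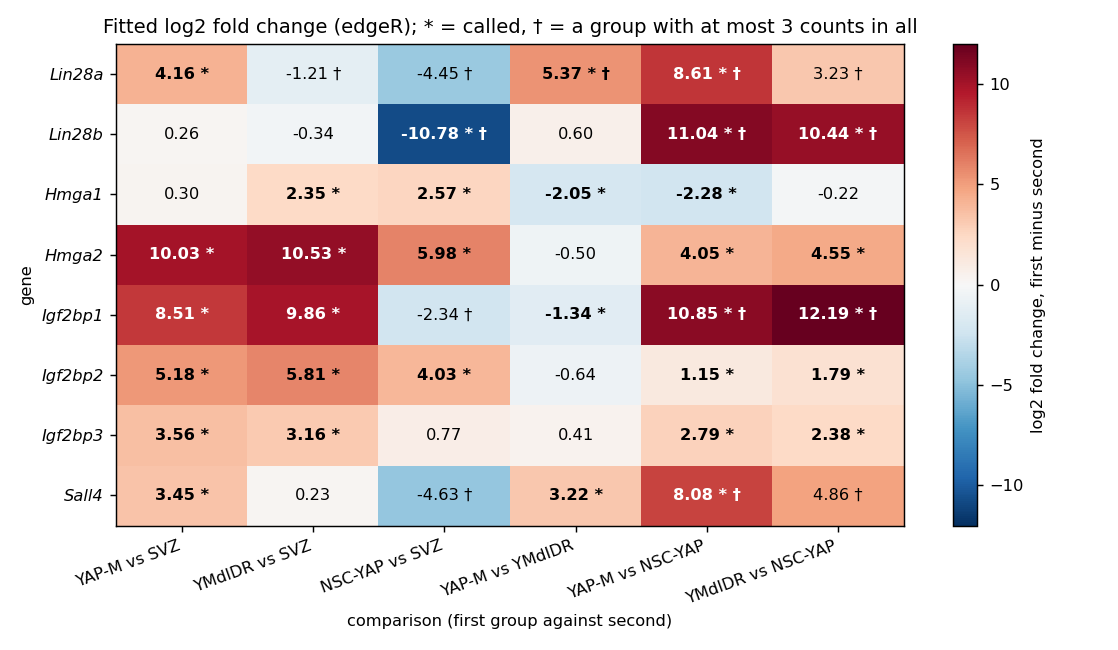
Fitted edgeR log2 fold changes of the 8 genes (rows) in 6 comparisons (columns), coloured from blue (lower in the first group) to red (higher), with an asterisk where the gene was called. A dagger marks a group with at most 3 counts in all, where the fitted value depends on the handling of zeros and is not a measured size. The Hmga2 and Igf2bp rows are red against SVZ in the 2 left columns, and the Lin28a and Sall4 rows are called in the fourth column.

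Within YAP-M the libraries differed in a way several members shared. Lin28a, Lin28b, Igf2bp1 and Sall4 all ran from replicate 3 over 1 and 2 to replicate 4. The highest library was 31.7 times the lowest for Lin28a, 12.1 times for Sall4, 3.14 times for Lin28b, 2.96 times for Igf2bp1 and 1.20 times for Hmga1. Replicate 3 was the highest for 5 of the 8 members, for 14 of 19 pluripotency genes and for 26.9% of all genes tested, and replicate 4 was the lowest for 7 of the 8 members and for 27.8% of all genes. Replicate 4 had the largest sums of oligodendrocyte (3424 CPM) and neuron markers (703.5 CPM) and the smallest cell cycle sum (1003 CPM) of the 4 tumours. Replicate 3 had the second largest oligodendrocyte sum (1763 CPM). The part of these in the order was not tested.

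The low levels of Lin28a and Sall4 had close matches in other genes, of which Fbxo15 is on the pluripotency list. Over the 12 libraries the nearest patterns to Lin28a were those of Dnmt3l, a partner of DNA methyltransferases (Pearson r = 0.992), Fbxo15 (0.988) and Calcoco2 (0.957), and those nearest to Sall4 were Fbxo15 (0.972), Calcoco2 (0.970) and Plet1 (0.962). Dnmt3l was measured at 4.24, 0.371, 11.6 and 0.223 CPM in YAP-M and at most 0.133 CPM elsewhere. Fbxo15 was measured at 3.28, 0.742, 12.04 and 0.335 CPM in YAP-M and at most 0.496 CPM elsewhere. Of the 19 pluripotency genes 11 were tested, and 8 were higher and 2 lower in YAP-M than in SVZ, where 25.8% of all genes were higher and 28.9% lower. Fbxo15, among the higher ones, had reached the 1 CPM needed for testing in YAP-M libraries alone, which fixed its direction. The higher count is therefore not read against that share. Of the defining genes, Pou5f1 had 7, 2, 5 and 0 counts in the YAP-M libraries and was not tested, Nanog had 16, 7, 18 and 15 counts and was higher than in SVZ (log2 1.19, adjusted p = 0.0304), and Sox2 fell by 1.74 on the log2 scale against SVZ (adjusted p = 4.19e-05 in edgeR). Klf4 (141 CPM against 4.75 CPM) and Tfcp2l1 (20.0 CPM against 3.54 CPM) were higher in YAP-M than in SVZ, and Klf4 averaged 78.9 CPM in YMdIDR. In NSC-YAP, where Lin28a and Sall4 had no count, Nanog had 67 and 43 counts and Sox2 averaged 489 CPM.

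**Figure D4:**
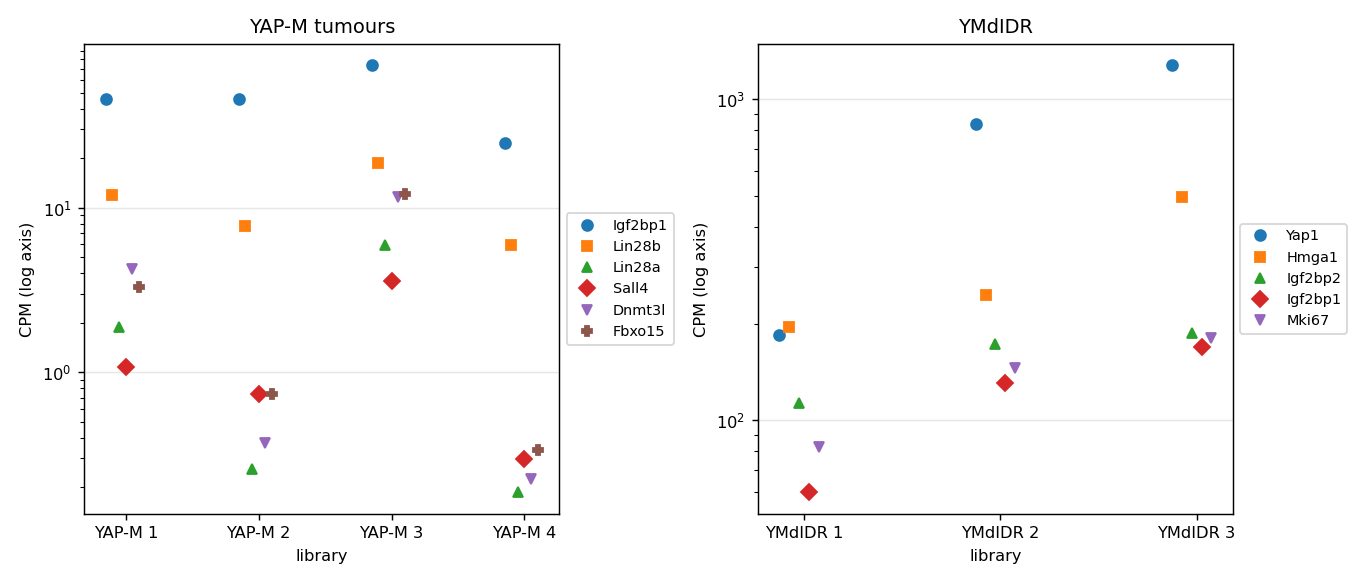
Levels (CPM, log axis) of selected genes in the 4 YAP-M libraries (left) and the 3 YMdIDR libraries (right), with 1 symbol per gene. On the left Lin28a, Sall4, Dnmt3l and Fbxo15 are highest in replicate 3 and lowest in replicate 4. On the right the plotted genes are lowest in replicate 1 and highest in replicate 3. Lin28b, Hmga2, Igf2bp3 and Sall4, which are not plotted on the right, did not follow that order.

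Within YMdIDR several members stood in the order of Yap1. Yap1 was measured at 184, 839 and 1276 CPM in replicates 1 to 3, and Hmga1, Igf2bp1, Igf2bp2 and the proliferation gene Mki67 (82.5, 146 and 181 CPM) stood in the same order. Replicate 1 was the lowest for 7 of the 8 members and for 39.1% of all genes tested, and replicate 3 the highest for 4 of the 8 and for 30.1% of all genes. Replicate 1 also had the largest choroid plexus (701 CPM) and mesenchymal marker sums (7892 CPM) and the smallest cell cycle sum (925 CPM) of the 3. With 3 libraries this order is a description, and the part of Yap1, of other cells and of the cell cycle was not tested.

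For the other members the nearest patterns followed the differences between groups, and the 12 points share those 4 groups. Tead1, a DNA-binding partner of YAP, was nearest to Hmga2 (r = 0.997), ahead of Mybbp1a, and averaged 510 CPM in YAP-M, 530 in YMdIDR, 31.6 in SVZ and 110 in NSC-YAP. Fam83g, Card10 and Set were nearest to Igf2bp1 (0.996, 0.995 and 0.994), Chaf1b, Reep4 and Kars to Igf2bp2 (0.996, 0.995 and 0.995), and Vps36, Iqgap1 and Stard13 to Igf2bp3 (0.996, 0.996 and 0.994). U2af2, Rbm14 and Dnph1 were nearest to Hmga1 (0.979, 0.978 and 0.973) and Strn, Atp6v1h and Cep83 to Lin28b (0.971, 0.964 and 0.953). Among the members themselves Hmga2 and Igf2bp2 had an r of 0.968, Hmga2 and Igf2bp3 of 0.965, and Lin28a and Sall4 of 0.964.

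RefSeq promoter windows of 300 bases, from 250 before to 50 after a start, were matched for 6 members in 7 windows and searched on both strands. The TEAD letters GGAATG were found in 0 of the 7 windows, and in 14.7% of 32851 windows of all genes. The AP-1 letters TGACTCA were also found in 0 of 7 (5.20% of all windows), the GC box GGGCGG in 5 of 7 (35.7%) and the E-box CACGTG in those of Igf2bp3 and Lin28b (7.15%). Hmga1 alone has more than 1 window, and its windows overlap and hold the same GC boxes. The GC box count thus covers only the genes Hmga1, Hmga2, Igf2bp2 and Lin28a. The Igf2bp3 and Lin28b promoters are printed because they hold the E-box, in capitals. The Igf2bp3 window holds it at 2 places, of which the other lies just after the start site, outside the bases printed. For Igf2bp3 the printed one starts 23 bases before the start site in the 250 bases chr6:49214955-49215204, and for Lin28b 49 bases before it in chr10:45470202-45470451, both on the minus strand. The RefSeq start of Lin28b lies 16194 bases inside the gene span of the files, so this window belongs to an internal start of the deposited gene model.
Igf2bp3 promoter: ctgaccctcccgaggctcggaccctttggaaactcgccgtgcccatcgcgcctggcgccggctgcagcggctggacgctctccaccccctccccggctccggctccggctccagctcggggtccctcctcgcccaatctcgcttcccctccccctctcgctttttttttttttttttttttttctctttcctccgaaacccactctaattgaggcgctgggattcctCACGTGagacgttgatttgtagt
Lin28b promoter: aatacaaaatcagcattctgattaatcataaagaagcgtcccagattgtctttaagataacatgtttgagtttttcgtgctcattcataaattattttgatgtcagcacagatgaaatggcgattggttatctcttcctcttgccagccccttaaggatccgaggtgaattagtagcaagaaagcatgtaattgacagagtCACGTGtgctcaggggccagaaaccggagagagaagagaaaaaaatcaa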

How the data were processed

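RNA-seq of 12 of the 17 samples was used, and the 5 ChIP-seq and CUT&RUN samples were not analysed here. The values deposited by the authors are raw counts, with coordinates and an exon length for each gene. Per the submitters' processing notes, TopHat2 and mm10 were used. No source used here gives versions, the counting program, strand use, the handling of multi-mapped reads or the annotation. Counts of 453 entries with a repeated symbol were summed, to 52850 symbols, and no member was among them. A filter of 1 CPM or more in 2 or more libraries left 18329 genes, which were tested with the quasi-likelihood test of edgeR 4.0.16 (R 4.3.3) with TMM scaling, in 1 fit of 12 libraries with 1 coefficient per group and no covariate, and adjusted by Benjamini-Hochberg. Values after ± are standard errors of log2 fold changes, or SD for levels. Where a group had 0 counts, 3 counts over that group gave a lower bound on the fold. With 1 to 3 counts an exact 95% interval was used. Both cover counting error only. Level per kilobase is CPM divided by the exon length. Pearson correlations used log2(CPM + 1). The script was tested on simulated counts. Replicate pairs differed by more than sampling noise (chi-square per gene 4.18 to 84.9).

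The members and the 19 gene lists were chosen with earlier results of these data known. Named are the members, the 3 genes nearest to each in pattern, up to 4 genes per list with the smallest adjusted p in YAP-M against SVZ, the Sall relatives, and Yap1. A few of these genes are not reported here. Others were named after their values were seen, among them Dis3l2, Msi1, Snai1, Dlk1, Mki67, Pou5f1, Nanog, Nes and the genes without a count. In the let-7 list, 2 of 23 names are newer symbols of genes the files list under older ones. Alternatives were other filters, median-ratio scaling, DESeq2 1.42.0, a replicate block, fits of only the groups compared, calls by adjusted p without a fold limit, the entry with the highest mean for repeated symbols and leaving out each library. Figures used matplotlib 3.10.9.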

Additional observations from a re-analysis of the deposited data

How the results depend on the processing

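Of 564 log2 fold changes of the members under the alternatives, 551 kept their direction and side of the threshold, 5 reversed, 5 passed it newly and 3 lost it. The 5 reversals were uncalled values with 1 library left out. Lin28b in YAP-M against SVZ ran from -0.006 (without YAP-M replicate 3) to 0.572, and in YMdIDR against SVZ from -0.891 to 0.156 (without YMdIDR replicate 1). Hmga1 in YMdIDR against NSC-YAP ran from -0.729 to 0.025 (without YMdIDR replicate 1), and Sall4 in YMdIDR against SVZ from -0.171 (without YMdIDR replicate 2; -0.15 without SVZ replicate 2) to 0.631. The counts of members called moved by over 1.5 times in 2 comparisons. In NSC-YAP against SVZ 3 were lower with the compared groups alone and 2 in DESeq2, against 1. In YAP-M against YMdIDR a minimum of 5 CPM left 0 higher, since Lin28a and Sall4 were then not tested. Leaving out each library gave 1 to 2 higher (1 without YMdIDR replicate 3) and 1 to 2 lower (1 without YMdIDR replicate 2 or 3). Those fits kept Lin28a and Sall4, which would not pass the filter without YAP-M replicate 1 or 3. Over all genes that comparison gave 1761 higher and 1242 lower, and 819 lower with 5 CPM. By the adjusted p alone it gave 3768 higher and 4199 lower, NSC-YAP against SVZ gave 5508 higher (3199 with the fold limit), and NSC-YAP had 6326 genes above YAP-M (3951) and 5792 above YMdIDR (3744). Except where the setting itself tests fewer genes or drops the fold limit, the cause was not tested.

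Same-numbered libraries of 2 groups correlated in their deviations from the group means by -0.097 to 0.386, not by over 0.1 in every pair, so the numbers were not taken to pair the samples. Of 6 libraries, 0 correlated best with their own number in YAP-M against SVZ, 3 in YMdIDR against SVZ and 4 in YAP-M against YMdIDR, and of 4 libraries 4 did in NSC-YAP against SVZ, 0 in YAP-M and 1 in YMdIDR against NSC-YAP. With the replicate number as a block the same count of members was called in all 6 comparisons (6 in YAP-M against SVZ, with 4721 genes higher and 5396 lower). Permutation tests planned for members under the filter were not run, since all 8 passed it.

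Depth limits Lin28a, Sall4 and the zero groups most: 3 counts in a library are 0.111 to 0.147 CPM. NSC-YAP has 2 libraries, and leaving 1 out assumes the other varies as the rest do.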
